A study of Sus scrofa with 6 samples.

Results

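Cholesterol synthesis enzymes, the SREBP control genes above them, and genes of sterol uptake, storage and efflux were examined in pig gut, 31 genes chosen by name. Each name was matched to a pig Ensembl gene identifier, and 30 of the 31 were found among the 21911 genes of the deposited table. The mevalonate enzyme gene PMVK was not analysed here, and the names do not cover every gene of the pathway. Of the 30 genes, 29 had a mean of at least 1 FPKM (fragments scaled to gene length and to library size) and were tested. The remaining one, FDPS, had a mean of 0.807 FPKM over the 6 libraries.

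The samples were gut tissue from pigs, 3 labelled Control and 3 labelled SMP. By the design text of the series, piglets that drank a metasilicate-based alkaline mineral water were set against Control piglets, and the comparison asked how gene expression in the gut differed between them. What the Control piglets drank, the dose and duration of the water, the breed, the age, the sex and the gut segment are not given in the labels. The labels do not say that each sample came from its own piglet, so p-values measure the spread between these samples, which may be technical.

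Animal cells build cholesterol from acetyl-CoA in the cytosol and endoplasmic reticulum, by way of mevalonate, squalene and lanosterol. When membrane sterol falls, the escort protein SCAP carries the membrane-bound transcription factors SREBP1 and SREBP2 to the Golgi, where they are cut and released to activate the synthesis genes. When sterol is plentiful, INSIG proteins hold SCAP back, and oxysterols activate the liver X receptors, which raise sterol efflux genes. In the small intestine, enterocytes also take up cholesterol from the lumen, esterify it for chylomicrons, and pump part of it back.

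The library totals behind the values, recovered from the steps between them, were 15927028 to 20712701 reads or read pairs, so the floor of 3 reads in a gene 2 kb long lay between 0.0724 and 0.0942 FPKM, which covers counting error alone. Epithelial markers were high in every library, with the brush border gene VIL1 at 427 to 792 FPKM. Of the hepatocyte genes, ALB did not exceed 0.118, TTR 0.0452 and SERPINA1 0.0219, while APOH was at 0.404 to 1.54. The mean log2(FPKM + 1) of 7 smooth muscle markers ran 6.47, 7.91 and 3.90 over Control replicates 1, 2 and 3, against 7.11 to 7.54 in SMP. The adipocyte genes ADIPOQ and PLIN1 were highest in Control replicate 2, at 4.37 and 2.74 FPKM. In the other libraries they did not exceed 1.19 and 0.919, and the adipocyte gene LEP did not exceed 0.03 in any library. The Y-linked gene EIF1AY was at 23.9 to 29.6 FPKM in the SMP libraries and at 0 to 0.187 in the Control libraries, and 5 of 6 tested proximal small intestine markers were lower in SMP with no overlap, beside 11.5% of all genes. Of these 5, GIP and MLN passed the test described below. The remaining marker, GATA4, overlapped between the groups, with means of 27.4 FPKM in Control and 27.2 in SMP. Sex, gut segment and treatment therefore cannot be told apart for any gene below. In bulk tissue, fewer cells of a type and less RNA per cell cannot be told apart either.

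Of the synthesis enzymes, 5 rose in SMP, at each stage of the pathway. They were ACAT2 at the entry, FDFT1 and LSS around squalene, and NSDHL and EBP after lanosterol. In these 5 genes the SMP mean was 1.66 to 2.30 times the Control mean. None of the 5 SREBP control genes and none of the 8 transport genes passed, and the median log2 difference of the transport genes was below 0. Log2 differences are of log2(FPKM + 1), SMP minus Control, a scale that compresses changes of weakly expressed genes. Adjusted p-values are from limma over all 11471 genes tested.

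In numbers, 5 of the 29 tested genes rose (17.2%) and 0 fell, while 3.5% of all genes tested rose and 2.1% fell. All 5 were among the 16 tested synthesis enzymes (31.2%). The median log2 difference was 0.71 over these 16 enzymes, 0.16 over the SREBP control genes and -0.21 over the transport genes, beside 0.09 over all genes tested. All 16 enzymes had a difference above 0, as did 58.9% of all genes, but DHCR7 was below 0 after median-ratio scaling of the libraries, and so were DHCR7 and SC5D when Control replicate 2 and SMP replicate 3 were left out together. The groups did not overlap, with SMP higher, in 13 of the 16 enzymes (81.2%) and in 21.1% of all genes. With median-ratio scaling the median of all genes moved to -0.01, and FDFT1 and NSDHL alone passed, with ACAT2, LSS and EBP at adjusted p-values of 0.0563, 0.0519 and 0.0522. With quantile normalization ACAT2 did not pass (adjusted p = 0.0566) and IDI1 did (adjusted p = 0.0257). With no filter on low values EBP alone passed. At an unadjusted p under 0.05 there were 13 of the 29 genes, 11 of them synthesis enzymes, beside 25.8% of all genes.

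**Figure D1:**
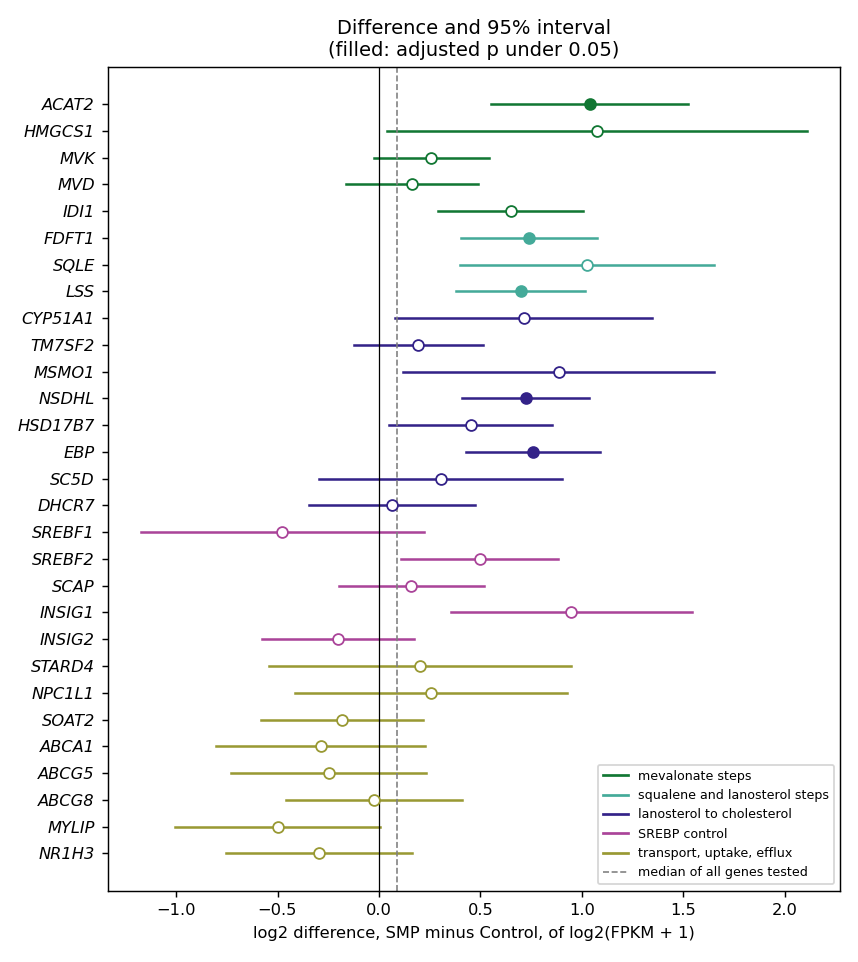
Log2 difference, SMP minus Control, of log2(FPKM + 1) for the 29 tested genes, with 95% intervals from limma (3 libraries per group); filled points passed an adjusted p of 0.05, and the dashed line is the median of all genes tested, 0.09. The 16 synthesis enzymes lie right of 0 (DHCR7 left of it with median-ratio scaling, and DHCR7 and SC5D without Control replicate 2 and SMP replicate 3), and 6 of the 8 transport genes lie left of it.

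Among the mevalonate steps, ACAT2 rose, and HMGCS1, MVK, MVD and IDI1 did not pass. ACAT2 (ENSSSCG00000004049), the cytosolic thiolase that joins acetyl-CoA units, was at 5.001, 3.33 and 4.91 FPKM in Control replicates 1, 2 and 3 and at 8.53, 9.13 and 12.8 in SMP. Every SMP library was above every Control library, and SMP replicate 3 was the highest. The group means were 4.41 ± 0.940 and 10.1 ± 2.30 (SD, n = 3 each), a 2.30-fold rise (log2 difference 1.04, SE 0.20, adjusted p = 0.0375).

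HMGCS1 (ENSSSCG00000016872), the synthase that makes HMG-CoA, had the largest log2 difference of the 29 genes and also the widest interval. Its level was 28.5, 10.8 and 23.3 FPKM in Control, against 30.3, 34.0 and 71.5 in SMP. The groups did not overlap, but SMP replicate 1 was only just above Control replicate 1, and Control replicate 2 and SMP replicate 3 were far from the rest of their groups. Its log2 difference of 1.08 (95% interval 0.04 to 2.11) did not pass (adjusted p = 0.181), and without both of those libraries it was 0.30 (adjusted p = 0.147).

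The kinase and the decarboxylase of the mevalonate branch had smaller differences. MVK (ENSSSCG00000009931), mevalonate kinase, was at 3.25 ± 0.158 in Control and 4.08 ± 0.229 in SMP (log2 difference 0.26, adjusted p = 0.229). MVD (ENSSSCG00000034905), the decarboxylase that makes isopentenyl diphosphate, was at 18.1 ± 1.93 and 20.3 ± 1.11 (log2 difference 0.16, 95% interval -0.16 to 0.49). The MVK groups did not overlap and the MVD groups did.

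IDI1 (ENSSSCG00000029066), the isomerase that makes dimethylallyl diphosphate, was the most abundant of the measured mevalonate genes. It was at 61.0, 48.2 and 60.8 FPKM in Control, against 84.8, 91.2 and 91.0 in SMP, with a clear gap between the groups. Its log2 difference of 0.65 (SE 0.15) did not pass (adjusted p = 0.0567). FDPS (ENSSSCG00000006512), farnesyl diphosphate synthase, was listed at 0.412 to 0.951 FPKM in Control and 0.777 to 1.09 in SMP, from 42 to 143 reads in each library. It was the lowest of the 17 enzyme genes, and the groups overlapped. The FDPS level is uncertain, because the counting of reads that match several gene copies is not described in the sources.

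**Figure D2:**
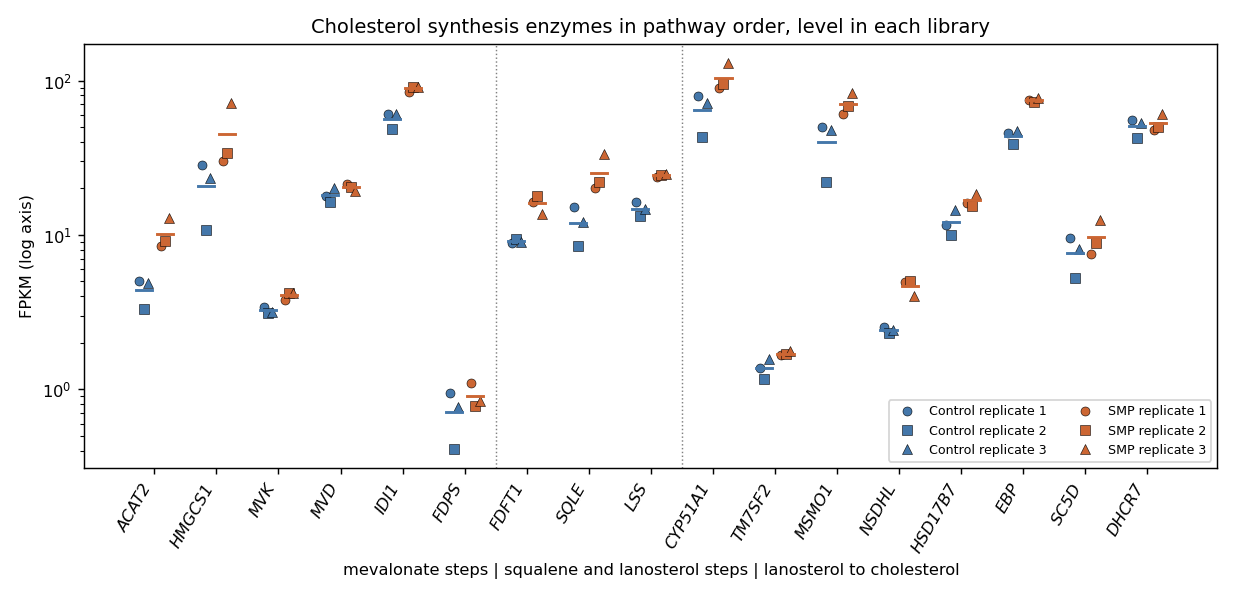
FPKM (log axis) of the 17 synthesis enzymes in pathway order; points are libraries, with symbols for the replicate number and colours for the group, and bars are group means. Levels span FDPS, below 1 FPKM on average, to CYP51A1, at 43.1 to 129 FPKM, and Control replicate 2 (blue squares) is the lowest library in 16 of the 17 genes.

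All 3 genes of the squalene and lanosterol steps were separated between the groups with SMP higher, beside 21.1% of all genes. FDFT1 and LSS rose, beside 3.5% of all genes. FDFT1 (ENSSSCG00000026044), squalene synthase, which commits the pathway to sterols, was at 8.91, 9.46 and 9.04 FPKM in Control, against 16.4, 17.9 and 13.7 in SMP. The Control libraries lay close together and SMP replicate 3 was the lowest of the SMP libraries, the opposite of its place in HMGCS1. FDFT1 rose 1.75-fold (log2 difference 0.74, SE 0.14, adjusted p = 0.0353).

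LSS (ENSSSCG00000021418), which closes squalene epoxide into lanosterol, was at 16.3, 13.2 and 14.7 FPKM in Control, against 23.9, 24.5 and 24.95 in SMP. The SMP libraries were almost level with each other. LSS rose 1.66-fold (log2 difference 0.70, SE 0.13, adjusted p = 0.0349). SQLE (ENSSSCG00000005970), squalene epoxidase, an oxygen-using and rate-limiting step, was at 15.1, 8.42 and 12.1 FPKM in Control, against 20.2, 22.1 and 33.4 in SMP. Its ratio of means, 2.12, was above those of FDFT1 and LSS, but the spread within each group was wider, and it did not pass (log2 difference 1.03, 95% interval 0.40 to 1.65, adjusted p = 0.0689).

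After lanosterol, NSDHL and EBP rose, beside 3.5% of all genes, and the other 6 genes did not pass. NSDHL (ENSSSCG00000012758), a dehydrogenase that helps to remove methyl groups from the sterol ring, was at 2.54, 2.32 and 2.41 FPKM in Control, against 4.95, 5.003 and 4.05 in SMP. The gap between the groups was wider than the spread within either. The rise was 1.92-fold (log2 difference 0.72, SE 0.13, adjusted p = 0.0313).

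EBP (ENSSSCG00000032768), the isomerase that shifts a double bond in the ring, was at 45.4, 38.6 and 47.1 FPKM in Control, against 74.5, 72.3 and 76.6 in SMP. It rose 1.70-fold (log2 difference 0.76, SE 0.14, adjusted p = 0.0319), with the groups well apart. NSDHL and EBP are X-linked genes in mammals, and the Y-linked values above did not overlap between the groups. The part of sex in these 2 differences was not tested.

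The other enzymes that act on lanosterol and its methyl sterols were separated between the groups, beside 21.1% of all genes with SMP higher, but did not pass. CYP51A1 (ENSSSCG00000015311), lanosterol demethylase, was at 79.1, 43.1 and 71.4 FPKM in Control, against 89.0, 95.3 and 129 in SMP (log2 difference 0.71, 95% interval 0.08 to 1.35, adjusted p = 0.153). MSMO1 (ENSSSCG00000008857), the methylsterol oxidase that works beside NSDHL, was at 50.1, 21.9 and 47.6 in Control, against 61.0, 67.9 and 83.0 in SMP (log2 difference 0.89, 95% interval 0.12 to 1.65, adjusted p = 0.146). In both genes Control replicate 2 was far below the other Control libraries and SMP replicate 3 was the highest. HSD17B7, the reductase of the same demethylation complex, was at 12.1 ± 2.31 and 16.7 ± 1.598 (log2 difference 0.45, adjusted p = 0.153). TM7SF2, a sterol reductase with little RNA here, was at 1.37 ± 0.199 and 1.71 ± 0.0565 (log2 difference 0.20, adjusted p = 0.415).

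At the end of the chain the groups overlapped. SC5D (ENSSSCG00000028517), a sterol desaturase, was at 9.57, 5.27 and 8.17 FPKM in Control, against 7.58, 8.85 and 12.5 in SMP (log2 difference 0.30, 95% interval -0.29 to 0.90). Without Control replicate 2 and SMP replicate 3 the SC5D difference was -0.0981. DHCR7 (ENSSSCG00000021181), the reductase that makes cholesterol from its dehydro precursor, was at 55.7, 42.6 and 53.4 in Control, against 47.5, 49.9 and 61.1 in SMP. Its log2 difference of 0.06 (95% interval -0.34 to 0.47) was -0.06 with median-ratio scaling and -0.16 without those 2 libraries. These intervals include 0 and also differences of the size seen in several of the enzymes before them.

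Among the 5 SREBP control genes, SREBF2 and INSIG1 were separated between the groups with SMP higher, as were 21.1% of all genes. SREBF1 was not separated, and none of the 5 passed. SREBF2 (ENSSSCG00000026092), which encodes the main activator of the cholesterol genes, was at 40.6, 31.9 and 34.6 FPKM in Control, against 46.1, 47.9 and 58.4 in SMP. Each SMP library was above each Control library (log2 difference 0.50, 95% interval 0.11 to 0.88, adjusted p = 0.117). INSIG1 (ENSSSCG00000016420), the sterol-sensitive anchor of SCAP and itself a known SREBP target, was at 14.9, 7.52 and 14.1 in Control, against 22.5, 22.95 and 25.1 in SMP. Its ratio of means was 1.93 (log2 difference 0.95, SE 0.25, adjusted p = 0.0748), and without Control replicate 2, its lowest library, it passed (log2 difference 0.66, adjusted p = 0.0386) in a fit where 4.66% of all genes rose.

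SREBF1 (ENSSSCG00000033626), whose products act more on fatty acid genes, was at 50.4, 23.3 and 37.5 FPKM in Control, against 20.6, 24.8 and 30.9 in SMP. Control replicate 2 lay among the SMP libraries. The log2 difference was -0.48 (95% interval -1.17 to 0.22, adjusted p = 0.362), and without Control replicate 2 and SMP replicate 3, the lowest Control and the highest SMP library of this gene, it was -0.91 (adjusted p = 0.0260). In that fit 10.7% of all genes passed as lower, and 2 of the 29 genes. INSIG2 (ENSSSCG00000036229), the INSIG not known as an SREBP target, was at 6.85, 4.85 and 6.91 in Control, against 4.97, 5.23 and 5.43 in SMP (log2 difference -0.20, 95% interval -0.57 to 0.17). SCAP (ENSSSCG00000026281) was at 8.66 ± 0.376 and 9.88 ± 1.59, with SMP replicate 3, at 8.04, the lowest of all 6 libraries (log2 difference 0.16, 95% interval -0.20 to 0.52).

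Ratios within a library, chosen after the values were seen and given without a test, set these pairs beside each other. SREBF2 over SREBF1 was 0.805, 1.37 and 0.925 in Control, against 2.23, 1.93 and 1.89 in SMP. INSIG1 over INSIG2 was 2.18, 1.55 and 2.04 in Control, against 4.52, 4.39 and 4.62 in SMP. In both ratios every SMP library was above every Control library.

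**Figure D3:**
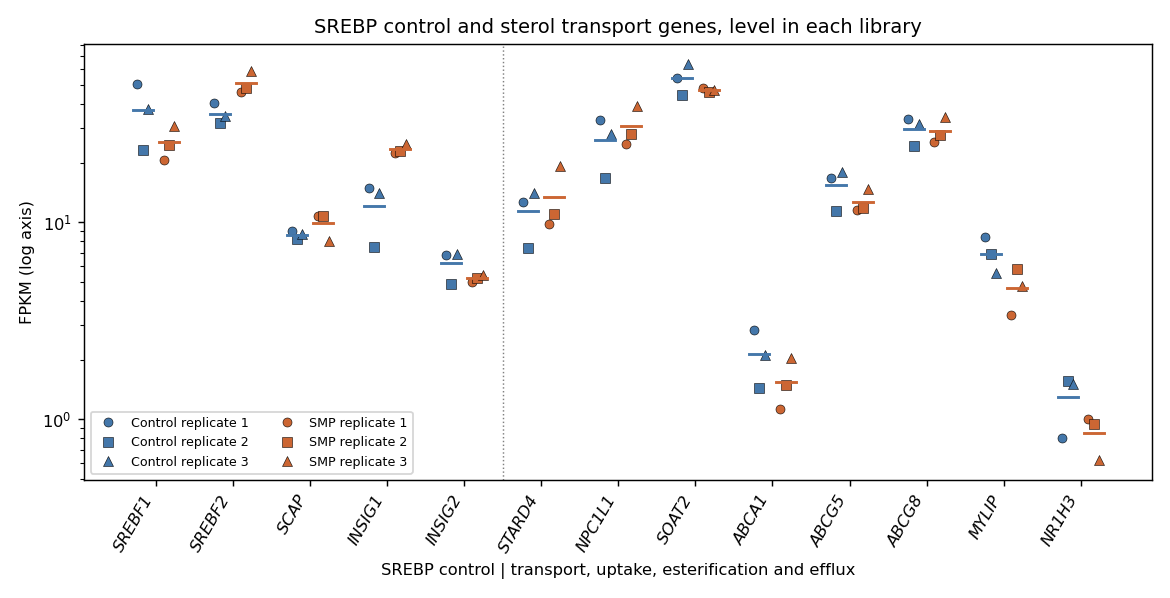
FPKM (log axis) of the 5 SREBP control genes and the 8 sterol transport, uptake, esterification and efflux genes; points are libraries, with symbols for the replicate number and colours for the group, and bars are group means. SREBF2 and INSIG1 are the 2 genes whose groups do not overlap, with SMP higher, as in 21.1% of all genes tested.

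Genes of sterol transport, uptake, storage and efflux overlapped between the groups in 8 of 8 cases, as did 67.4% of all genes. STARD4 (ENSSSCG00000031518), a carrier of cholesterol between membranes and a known SREBP2 target, was at 12.8, 7.404 and 14.1 FPKM in Control, against 9.87, 11.05 and 19.4 in SMP. NPC1L1 (ENSSSCG00000016746), the brush border protein that takes up dietary cholesterol, was at 33.2, 16.9 and 28.1 in Control, against 24.96, 28.2 and 39.0 in SMP. In both genes Control replicate 2 was the lowest and SMP replicate 3 the highest of the 6 libraries. Among the other 4, the SMP libraries were below the Control libraries in STARD4, while the groups overlapped in NPC1L1. The log2 differences of STARD4 and NPC1L1 were 0.20 (95% interval -0.54 to 0.95) and 0.26 (95% interval -0.41 to 0.93). Without Control replicate 2 and SMP replicate 3 both were below 0, at -0.34 and -0.20 (adjusted p = 0.0826 and 0.283).

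SOAT2 (ENSSSCG00000000260), the acyltransferase that esterifies absorbed cholesterol, was at 54.1 ± 9.89 FPKM in Control and 47.0 ± 1.17 in SMP (log2 difference -0.18, 95% interval -0.58 to 0.22). It was the most abundant of the 8 genes and varied little among the SMP libraries.

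The efflux genes had log2 differences below 0 and did not pass. ABCA1 (ENSSSCG00000005423), which loads cholesterol onto apolipoprotein A-I, was at 2.84, 1.45 and 2.12 FPKM in Control, against 1.13, 1.49 and 2.04 in SMP (log2 difference -0.29, 95% interval -0.80 to 0.23). ABCG5 (ENSSSCG00000035912), one subunit of the pump that returns sterols to the lumen, was at 16.8, 11.4 and 18.1 in Control, against 11.6, 11.8 and 14.7 in SMP (log2 difference -0.25, 95% interval -0.73 to 0.23). Its partner ABCG8 (ENSSSCG00000008453) was at 33.5, 24.3 and 31.6 in Control, against 25.7, 27.7 and 34.2 in SMP (log2 difference -0.03, 95% interval -0.46 to 0.41). The ABCG8 difference changed sign with quantile normalization, to 0.01. In ABCG5, Control replicate 2 lay just below the SMP libraries and SMP replicate 3 was the highest of SMP, and without these 2 the log2 difference was -0.54 (adjusted p = 0.0196), in the fit where 10.7% of all genes fell, while ABCG8 was at -0.28 (adjusted p = 0.0885). ABCG5 over ABCG8 was 0.502, 0.469 and 0.573 in Control, against 0.451, 0.424 and 0.430 in SMP, so that this ratio, also chosen after the values were seen and not tested, was lower in every SMP library.

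The regulators of this branch did not pass either. NR1H3 (ENSSSCG00000013241), the liver X receptor alpha, was at 0.799, 1.57 and 1.51 FPKM in Control, against 1.00, 0.941 and 0.621 in SMP (log2 difference -0.29, 95% interval -0.75 to 0.17). MYLIP (ENSSSCG00000001063), a ubiquitin ligase that degrades lipoprotein receptors and a known liver X receptor target, was at 8.39, 6.94 and 5.504 in Control, against 3.39, 5.77 and 4.78 in SMP. Its groups overlapped only by Control replicate 3 and SMP replicate 2 (log2 difference -0.50, 95% interval -1.004 to 0.01, adjusted p = 0.199).

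A pattern of single libraries ran through the pathway beside the group difference. Control replicate 2 was the lowest of the 6 libraries in 24 of the 30 genes, and SMP replicate 3 the highest in 16, while the same held for 28.8% and 18.8% of all genes tested. Within the Control group, replicate 2 stood at 0.416 times the mean of the other 2 libraries in HMGCS1, 0.449 in MSMO1 and 0.518 in INSIG1, but at 0.939 in NSDHL and 1.05 in FDFT1. Within SMP, replicate 3 stood at 2.23 times the mean of the other 2 libraries in HMGCS1, 1.86 in STARD4 and 1.58 in SQLE, but at 0.798 in FDFT1 and 0.745 in SCAP. In the 5 genes that rose, Control replicate 2 stood at 0.672 to 1.05 times and SMP replicate 3 at 0.798 to 1.45 times the mean of the others of their group.

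**Figure D4:**
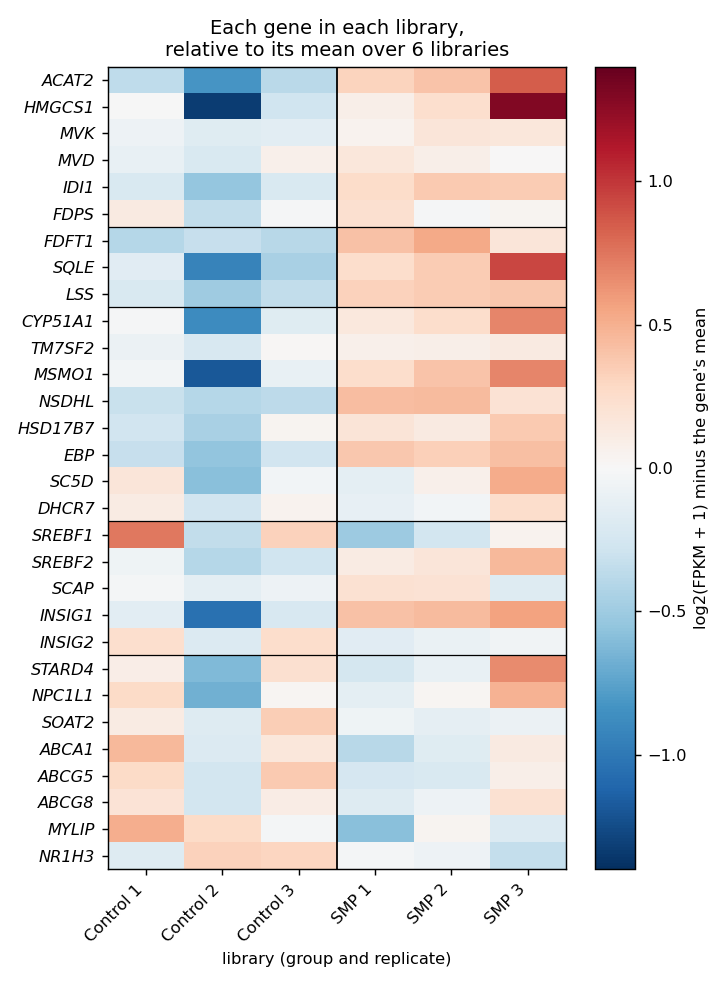
Log2(FPKM + 1) of the 30 genes in each of the 6 libraries, minus the gene's mean over the libraries, with red above and blue below the mean; horizontal lines part the mevalonate, squalene, lanosterol, SREBP control and transport genes. Control replicate 2 is lowest in 24 of the 30 rows and SMP replicate 3 highest in 16, with HMGCS1 the most extreme in both.

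Without both Control replicate 2 and SMP replicate 3, 9 of the 29 genes rose and 2 fell, while 15.7% of all genes rose and 10.7% fell in that fit. The 5 genes above kept their calls, and IDI1, SQLE, MSMO1 and INSIG1 joined them, with log2 differences of 0.52, 0.61, 0.39 and 0.61. The 2 that passed as lower were SREBF1 and ABCG5. The 5 calls depended on which library was left out: all 5 were kept without Control replicate 2 or without SMP replicate 3 alone, and 0 of them without any one of Control replicate 1, Control replicate 3, SMP replicate 1 or SMP replicate 2, where adjusted p-values reached 0.172. The share of all genes that rose was 4.66% and 6.76% in the first 2 of these fits, and 0.776%, 0.235%, 0.227% and 0.183% in the other 4, in the order named. The log2 differences of the 5 genes in the 6 fits were 0.63 to 1.14.

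Levels of marker genes for epithelium and for dividing cells were set beside those of the synthesis enzymes. The mean log2(FPKM + 1) of the 16 enzymes was 4.04, 3.60 and 4.0015 in Control, against 4.38, 4.45 and 4.65 in SMP. That of 8 epithelial markers was 8.47, 8.35 and 8.70 in Control, against 8.75, 8.79 and 8.93 in SMP, none of the 8 passing. These markers did not move alike. In 2 of the 8 the SMP libraries were all higher, beside 21.1% of all genes: FABP2 (log2 difference 1.27, adjusted p = 0.0612) and VIL1 (0.45). KRT20 was at -0.10, and the list's median log2 difference was 0.18. The enzymes' mean minus the epithelial mean was -4.42, -4.75 and -4.70 in Control and -4.37, -4.34 and -4.28 in SMP, so the groups did not overlap after this subtraction, though Control replicate 1 and SMP replicate 1 were close. With the epithelial mean as a covariate, added after the data were seen, 0 of the 5 genes passed (adjusted p = 0.168 to 0.338), with log2 differences of 0.56 to 0.89, and DHCR7, SC5D, STARD4 and NPC1L1 were below 0. Of 4 tested genes of dividing cells, TOP2A and MCM2 rose, beside 3.5% of all genes, and the list's mean was 3.31 to 3.55 in Control and 4.02 to 4.66 in SMP. The enzymes' mean minus that of the dividing-cell genes was 0.73, 0.05 and 0.48 in Control and -0.28, -0.12 and 0.63 in SMP, which overlapped. The part of these cells in the enzymes' difference was not tested.

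Of 25 other tested genes of sterol handling and neighbouring steps, 0 rose and 2 fell, SCARB1 and CYP27A1, beside 3.5% and 2.1% of all genes. The list held genes not particular to sterols, such as PDSS1, COQ2, ACAT1 and RXRA. SCARB1, a receptor for high-density lipoprotein that also takes part in intestinal lipid uptake, was at 19.2, 17.5 and 20.7 FPKM in Control, against 4.36, 4.55 and 4.15 in SMP. All 3 SMP libraries were far below all 3 Control libraries, a 4.41-fold fall (log2 difference -1.91, SE 0.13, adjusted p = 0.00140). CYP27A1, a mitochondrial sterol hydroxylase that makes an oxysterol ligand of the liver X receptors, fell 4.51-fold, with means of 15.4 ± 3.12 and 3.41 ± 0.594 (log2 difference -1.88, SE 0.19, adjusted p = 0.00718). The list's median log2 difference was 0.27. In 12 of the 25 genes the SMP libraries were all higher and in 5 all lower, beside 21.1% and 11.5% of all genes.

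Of 11 tested lipid synthesis genes that SREBP1 is known to activate, 4 rose and 0 fell, beside 3.5% and 2.1% of all genes, and SREBF1 itself had a log2 difference below 0. FASN, fatty acid synthase, was at 31.4, 25.3 and 27.5 FPKM in Control, against 52.3, 50.7 and 52.2 in SMP. The SMP libraries were level and above every Control library (log2 difference 0.86, SE 0.14, adjusted p = 0.0237). ACSS2 and ACLY, which supply cytosolic acetyl-CoA to both the fatty acid and the cholesterol pathway, rose 1.95-fold and 1.69-fold (adjusted p = 0.0385 and 0.0496). ELOVL6, a fatty acid elongase, rose 2.06-fold (adjusted p = 0.0403). The list's median log2 difference was 0.59. SCD, the stearoyl-CoA desaturase gene, did not pass, and its groups overlapped. It was lowest in Control replicate 2 and highest in SMP replicate 3, as HMGCS1 was, at 15.004, 3.51 and 8.26 in Control, against 12.5, 15.4 and 34.9 in SMP (log2 difference 1.19, adjusted p = 0.214). ACSL3 was the only one of the 11 with a difference below 0. It was at 50.5, 12.5 and 43.3 in Control, against 11.7, 18.1 and 49.6 in SMP (log2 difference -0.44, adjusted p = 0.711).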

How the data were processed

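Gut tissue of 3 Control and 3 SMP pig samples had been profiled by RNA-seq, and the treatment label set the groups. The authors deposited 1 FPKM value per gene and library for 21911 genes, a unit read from the values. The submitters' processing notes name HISAT2 2.0.5, DESeq2 1.16.1 and StringTie without saying what each did. They also name the mouse build mm10, although the identifiers are those of pig Ensembl genes, so the build is unsettled and coordinates are left out. The strand setting and the treatment of multi-mapping reads are not described in the sources.

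Symbols came from a gene name table that matched 14153 identifiers. Whole reads behind the FPKM values were recovered for 21911 genes (100%), at a relative tolerance of 5e-09, and the library totals with them. Groups were compared with limma 3.58.1 (R 4.3.3) on log2(FPKM + 1), treatment only, with an empirical Bayes trend, for the 11471 genes whose mean reached 1 FPKM, and Benjamini-Hochberg adjustment over all of them at 0.05. The step was checked on simulated data with the same dispersion for every gene and no outlying libraries. That check does not cover libraries that stand apart, such as Control replicate 2 and SMP replicate 3. The genes and lists were chosen with earlier results of these data known. By rule, all 31 genes were to be named by role, and genes of other lists where they passed. SCD, ACSL3 and genes not passing in marker lists are named after their values were seen.

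Alternatives were pseudocounts of 0.1 and 0.5, filters of none and of a mean of 5 FPKM, quantile normalization, median-ratio scaling, a replicate block, array weights by the gene-by-gene method, a robust fit, voom on the recovered reads, each library left out, and Control replicate 2 and SMP replicate 3 left out together. The gene-by-gene method of array weights was chosen after the data were seen, because the default method did not converge; the default also called more genes, and its values are not used here. Covariates of the smooth muscle and epithelium marker means were added after the data were seen.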

Additional observations from a re-analysis of the deposited data

How the results depend on the processing

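Of the pathway genes 5 were called higher and 0 lower. With pseudocounts of 0.1 and 0.5 and the robust fit the calls were unchanged in all 29 genes, and with voom IDI1 was added (adjusted p = 0.0463). With quantile normalization 5 were called higher, with IDI1 (adjusted p = 0.0257) in place of ACAT2 (adjusted p = 0.0566). The number called higher was 1 without a filter, 2 with median-ratio scaling, 10 with array weights and 9 without both Control replicate 2 and SMP replicate 3, with 3 and 2 called lower in the last 2 fits. It was 0 with the smooth muscle covariate and 0 with the epithelium covariate, and 0 to 6 with single libraries left out. With median-ratio scaling ACAT2, LSS and EBP had adjusted p-values of 0.0563, 0.0519 and 0.0522. Over all genes, 401 higher and 241 lower became 158 and 100 with no filter. There were 241 higher at a mean of at least 5, 423 lower with median-ratio scaling, 2933 and 1436 with array weights, and 1804 and 1230 without both libraries. With the smooth muscle covariate there were 34 and 28, with the epithelium covariate 9 and 6, and with single libraries left out 21 to 775 and 20 to 527. Fits with fewer libraries or an added covariate have fewer degrees of freedom, but calls rose in some of these fits and fell in others. The causes were not tested.

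Whether samples of the same replicate number were paired is not given in the labels. The correlations of same-numbered deviations from the group means were -0.31, 0.32 and -0.04. They cannot decide it, because deviations from a mean of 3 libraries depend on each other. With the replicate block 0 pathway genes were called, and 115 genes higher and 121 lower over all.

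Signs turned only in genes that had not passed. ABCG8 was at 0.013 with quantile normalization, 0.0627 with the smooth muscle covariate, -0.28 without both libraries and -0.16 to 0.0635 with single libraries left out. DHCR7 was at -0.0588 with median-ratio scaling, -0.0913 with array weights, -0.16 without both libraries, -0.26 with the epithelium covariate and -0.05 to 0.14 with single libraries left out. STARD4 was at -0.23, NPC1L1 at -0.0271 with array weights, and they were at -0.34 and -0.20 without both libraries and -0.69 and -0.37 with the epithelium covariate. With single libraries left out they ranged from -0.08 to 0.38 and from -0.02 to 0.45. SC5D was at -0.0981 without both libraries, -0.24 with the epithelium covariate and 0.0873 to 0.46 with single libraries left out. With 3 libraries per group, intervals of the differences spanned up to about 2 log2 units, as in HMGCS1. Counting error is small at these depths except in FDPS and TM7SF2.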
